A study of Mus musculus with 18 samples.

Results

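Pancreatic acinar cells from xCT KO mice were compared with those from WT mice after 1 day of suspension culture, in 3 KO and 3 WT libraries of the 18 libraries of the series. KO mice (xCT-/-) lack a working Slc7a11 gene in every cell, and WT mice (xCT+/+) carry it. Both are descendants of the same strain, and all cells were freshly isolated and kept in Advanced RPMI medium, in which acinar cells dedifferentiate. The age and sex of the mice used for the cultures and the deleted part of Slc7a11 are not given in the sources used here. Libraries of day 0 (3 KO and 3 WT) and day 4 (3 KO and 3 WT) were used to see whether a difference was particular to day 1. All genes that passed a filter on low counts were members of the comparison, 13203 of the 46603 genes in the table.

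Slc7a11 encodes xCT, the subunit that gives the antiporter system xc- its transport activity. The antiporter brings cystine into the cell in exchange for glutamate, and the cell reduces cystine to cysteine, which limits the synthesis of glutathione. Glutathione serves the lipid peroxidase GPX4, which prevents the iron-dependent death known as ferroptosis. Acinar cells make digestive enzymes at a very high rate, and isolation and culture put them under stress, to which cells answer with heat shock proteins, immediate early genes and the amino acid response.

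Slc7a11 itself (chr3:49892526-50443614 in GRCm38, minus strand) was nearly lost. It had 1.0, 1.02 and 1.47 CPM in KO libraries, against 70.2, 63.9 and 77.1 CPM in WT libraries (CPM, counts scaled to a common TMM-normalised library size), from 49 counts in KO and 2205 in WT over the 3 libraries of each. The log2 difference was -5.93 (standard error 0.16, adjusted p = 3.1e-22 by edgeR's quasi-likelihood test with Benjamini-Hochberg adjustment, which gave all p-values unless another test is named). The genotype labels of all 6 libraries were borne out by this gene. Slc7a11 was also called lower in KO at day 0 (log2 difference -3.98) and at day 4 (-6.35).

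At day 1, 192 of 13203 genes (1.45%) passed an adjusted p of 0.05, of which 36 were higher in KO (0.273% of genes tested) and 156 were lower (1.18%). Most differences were small. Of the 156 lower genes, 130 differed by no more than 1 on the log2 scale, and the median was -0.61. The 36 higher genes had a median of 0.82 with 11 above 1. At an unadjusted p under 0.05 there were 1823 genes, 792 higher and 1031 lower. The count of 192 rested on single libraries, with 45 called without WT2, 47 without KO2 and 95 without WT1, while the other 3 fits with 1 library left out gave 139 to 214. Of the 79 called genes named here other than Gm7327, 21 were called in each of these 6 fits, among them Slc7a11, Hsph1, Dnajb1, Cryab, Ctrc, Dusp1, Ndrg1, Mdn1, Adh1 and Nr1d1.

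**Figure D1:**
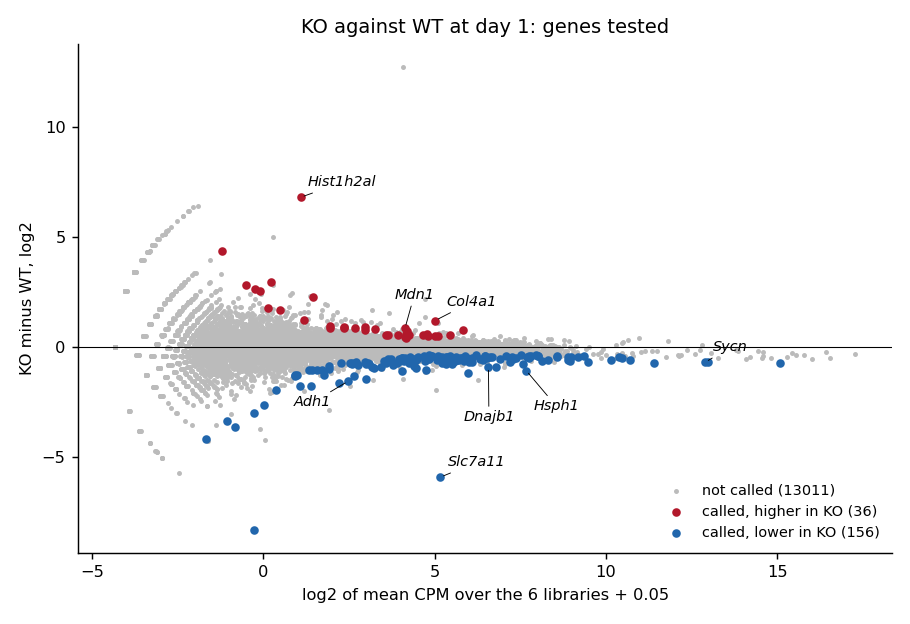
Each point is 1 of the 13203 genes tested, placed by the log2 of its mean CPM over the 6 day 1 libraries (plus 0.05) on the horizontal axis and by its log2 difference, KO minus WT, on the vertical axis. The 36 red genes were called higher in KO and the 156 blue genes lower, most of them close to the line at 0, with Slc7a11 far below it.

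Differences are relative to the typical gene, and this choice decided the balance of directions. The listed acinar enzymes took 65.2% ± 0.666 of all counts in KO libraries and 68.4% ± 0.529 in WT libraries (mean ± SD, N = 3 each), and the TMM factors were 0.888 to 0.968 in KO and 0.739 to 0.762 in WT. Scaling by library totals alone moved the median of all genes to 0.317 and gave 2347 genes higher and 51 lower (2.13% of calls lower, against 81.2%). The 36 higher genes were all called under both scalings, but only 41 of the 156 lower genes were. None of the called genes named here changed sign under library totals. The libraries held 14561075 to 15641110 counts in KO and 13092204 to 14545420 in WT. WT1 had 18 counts of the Y-linked Ddx3y and 1 of Xist, and the other 5 libraries had Xist and no Ddx3y, so WT1 alone had the counts of a male.

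Heat shock chaperones, which help proteins fold and refold, held the 2 most firmly called genes after Slc7a11. Of 31 tested, 5 fell in KO at day 1, against 1.18% of all genes tested, and the median of the list was -0.117 against 0.001 for all genes. For 13 members the groups did not overlap with KO lower, against 9.85% of all genes tested. Under library totals 3 members (Hsph1, Dnajb1 and Cryab) were still lower and 9 were higher, against 51 and 2347 of all 13203 genes. Leaving out 1 library gave 3 lower members without WT2, 6 without KO1 and 4 or 5 in the other fits. In bulk RNA, fewer cells of a type and less RNA per cell cannot be told apart.

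Hsph1, Bag3 and Dnajb1 are shown with the sequence around their start, since heat shock factors are known to bind inverted repeats of GAA. RefSeq promoters (GRCm38.p6, 250 bases before to 50 after the start) were found for 24 of the 31 genes, and Hsp90aa1 and Cryab had no entry. Capitals mark GAANNTTC or TTCNNGAA, letters that read the same on both strands. Hsph1 had 3 matches, of which the last 2 overlap, Bag3 had 1, and Dnajb1 had none in this window.
Hsph1 (chr5:149636287-149636586, minus strand): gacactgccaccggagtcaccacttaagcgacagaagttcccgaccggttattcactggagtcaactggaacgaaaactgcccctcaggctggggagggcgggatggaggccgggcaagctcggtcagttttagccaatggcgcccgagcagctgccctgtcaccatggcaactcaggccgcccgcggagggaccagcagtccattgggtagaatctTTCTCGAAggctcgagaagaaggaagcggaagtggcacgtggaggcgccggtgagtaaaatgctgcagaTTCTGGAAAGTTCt
Bag3 (chr7:128523333-128523632, plus strand): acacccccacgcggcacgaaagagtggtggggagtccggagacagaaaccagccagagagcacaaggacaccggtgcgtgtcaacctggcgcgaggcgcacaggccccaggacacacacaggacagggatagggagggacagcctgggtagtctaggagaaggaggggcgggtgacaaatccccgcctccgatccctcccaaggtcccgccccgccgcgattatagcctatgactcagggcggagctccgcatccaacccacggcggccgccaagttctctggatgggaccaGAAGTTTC
Dnajb1 (chr8:83607925-83608224, plus strand): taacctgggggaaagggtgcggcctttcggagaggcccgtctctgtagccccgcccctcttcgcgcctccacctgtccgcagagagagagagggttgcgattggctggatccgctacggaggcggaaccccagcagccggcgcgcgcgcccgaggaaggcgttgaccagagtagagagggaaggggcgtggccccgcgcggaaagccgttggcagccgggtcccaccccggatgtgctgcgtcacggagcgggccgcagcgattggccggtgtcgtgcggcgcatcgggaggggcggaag
Of the 21 heat shock genes with a promoter that were not called, 9 held such a match, and of all 27025 RefSeq promoters of this length, 15.1% did. Among all genes called lower, 13 of 110 promoters held it, close to the 11.5% of promoters of genes tested.

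Hsph1, an HSP110 chaperone that helps HSP70 exchange its nucleotide, had 141, 142 and 111 CPM in KO libraries, against 283, 309.5 and 237 CPM in WT libraries. The highest KO library was far below the lowest WT library, and the log2 difference was -1.07 (standard error 0.11, adjusted p = 8.3e-07). Dnajb1, the HSP40 that brings clients to HSP70, had 73.4, 60.4 and 64.7 CPM in KO, against 124, 134 and 114 CPM in WT, with a log2 difference of -0.90 (adjusted p = 6.8e-07). Cryab, a small heat shock protein that holds unfolded clients, had 47.3, 49.5 and 50.3 CPM in KO, against 74.4, 77.8 and 86.9 CPM in WT (log2 difference -0.70, adjusted p = 0.00081). No KO library reached a WT library in these 3 genes, and the 3 calls held without any 1 library.

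Bag3, an HSP70 cochaperone that directs damaged proteins to autophagy, had 49.7, 54.3 and 46.3 CPM in KO, against 74.5, 73.5 and 68.3 CPM in WT (log2 difference -0.53, adjusted p = 0.0082), and was not called without WT2 (0.059). Hsp90aa1, the inducible HSP90, had 461, 436 and 392 CPM in KO, against 619, 609 and 529 CPM in WT (log2 difference -0.45, adjusted p = 0.022), and was not called without WT1, WT2, KO2 or KO3 (up to 0.14). Other abundant members did not pass the test. Hspa8, the constitutive HSP70, averaged 1048 ± 56.6 CPM in KO and 1467 ± 165 CPM in WT (SD, N = 3 each, adjusted p = 0.085), and Hspb1 averaged 296 ± 17.3 CPM in KO and 369 ± 28.7 CPM in WT (adjusted p = 0.13), in each case without overlap. The inducible HSP70 gene Hspa1a, which shares most of its sequence with Hspa1b, averaged 79.1 ± 22.3 CPM in KO and 90.7 ± 5.74 CPM in WT (adjusted p = 0.78), and its groups overlapped.

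**Figure D2:**
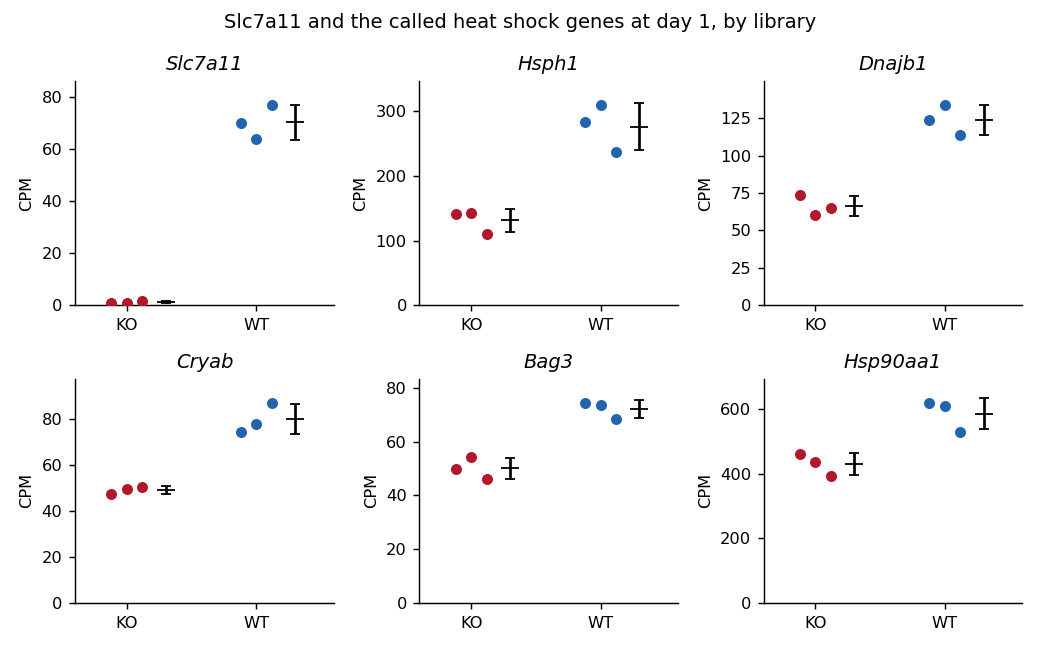
CPM (vertical axis, from 0) of Slc7a11 and the 5 called heat shock genes in each day 1 library, KO on the left in red and WT on the right in blue, with the mean and SD of 3 libraries as a black bar. In all 6 panels every KO library lies below every WT library, with Slc7a11 at 1.0 to 1.47 CPM in KO.

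None of these 5 genes was called lower in KO at day 0 or at day 4. At day 0, Hsph1 was higher in KO, with 20.8 ± 3.5 CPM against 12.6 ± 2.0 CPM in WT (log2 difference 0.72, adjusted p = 0.024), and at day 4 it averaged 52.9 ± 2.8 CPM in KO and 46.2 ± 4.3 CPM in WT (0.20, adjusted p = 0.30). The change of the difference was -1.79 from day 0 to day 1 (adjusted p = 9.6e-06) and 1.27 from day 1 to day 4 (adjusted p = 2.0e-05). Dnajb1 differed by -0.01 at day 0 and 0.02 at day 4, and its difference changed from day 1 to day 4 by 0.93 (adjusted p = 0.00011), while the change from day 0 to day 1, -0.89, did not pass the test (adjusted p = 0.057). For Cryab and Hsp90aa1 the change from day 1 to day 4 also passed (0.69, adjusted p = 0.015 and 0.54, adjusted p = 0.041), and for Bag3 it did not (0.36, adjusted p = 0.25). From day 0 to day 1 Hsph1 was the only heat shock gene whose change passed, so Cryab, Hsp90aa1 and Bag3 did not. These changes share the day 1 libraries with the comparison above.

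**Figure D3:**
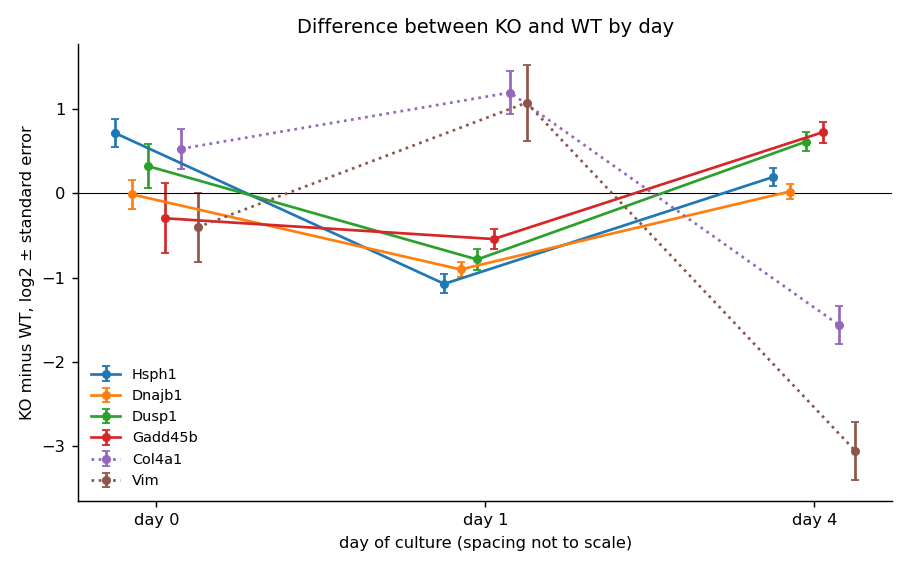
Log2 difference between KO and WT (vertical axis, with its standard error) at day 0, day 1 and day 4 for 6 genes. Hsph1, Dnajb1, Dusp1 and Gadd45b lie below 0 at day 1 and at or above 0 at day 4, while Col4a1 and Vim lie above 0 at day 1 and below it at day 4.

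Immediate early genes are transcribed within minutes of a stimulus. Of 26 tested, 1 was called, Dusp1, a phosphatase that shuts off MAP kinases, with 30.6, 27.6 and 30.6 CPM in KO, against 48.2, 54.0 and 51.1 CPM in WT (log2 difference -0.79, adjusted p = 0.00047). The share of all genes that fell was 1.18%. The median of the list was -0.30 and 11 members did not overlap with KO lower, against 9.85% of all genes. With no filter, or in a fit of the day 1 libraries alone, 3 members were called lower, and under library totals 1 member was higher, none was called lower and the median was 0.020. At day 4 Dusp1 was higher in KO (log2 difference 0.62), and its difference changed by 1.40 from day 1 (adjusted p = 9.4e-06). The stress sensors Gadd45a and Gadd45b, listed with p53 and FoxO targets, fell by 0.46 and by 0.54 on the log2 scale (adjusted p = 0.043 and 0.019). Both calls were lost in most fits with 1 library left out, Gadd45a being called only without WT3 and Gadd45b only without WT3 or KO1. Under library totals neither was called (adjusted p = 0.45 and 0.31). They were the only members called lower among 33 p53 genes and 30 FoxO genes, with list medians of -0.032 and -0.142. In the p53 list 1 member rose, against 0.273% of all genes. Under library totals 9 of the 33 and 5 of the 30 were higher and none was lower, against 2347 higher of all 13203 genes. Rcan1, an inhibitor of calcineurin, was lower at day 1 (-0.54, adjusted p = 0.019, lost without WT1, WT2 or KO2) and higher at day 4, a change of 1.05 (adjusted p = 0.00040).

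Of 26 MAPK feedback genes, 2 rose (0.273% of all genes did), 2 fell (1.18% did) and 22 did not pass the test. Under library totals 5 were higher and none was lower, with a median of 0.282. That scaling made 2347 of all 13203 genes higher, with a median of 0.317. Dusp4, a nuclear MAP kinase phosphatase, had 11.6, 12.1 and 12.5 CPM in KO, against 6.02, 5.17 and 9.56 CPM in WT (log2 difference 0.79, adjusted p = 0.016). Etv5, a transcription factor induced by FGF and ERK signals, had 6.88, 10.1 and 12.3 CPM in KO, against 5.47, 4.86 and 6.69 CPM in WT (0.77, adjusted p = 0.038). Every KO library was above every WT library for both genes, though each call was lost without WT1, WT2 or KO2, and that of Etv5 also without KO3. The other lower gene beside Dusp1 was Egf, a growth factor (-0.59, adjusted p = 0.016, lost without WT2 or KO2).

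Of 34 genes of digestive enzymes and zymogen granules, 5 fell in KO and 29 did not pass the test, against 1.18% of all genes that fell. The median was -0.376, and 26 did not overlap with KO lower, against 9.85% of all genes. The count was 21 in a fit of the day 1 libraries alone, 11 with no filter on low counts, 8 by DESeq2 and 2 or 0 by limma on FPKM. Under library totals the median was -0.061 and 5 members were called lower. Leaving out 1 library gave 2 without WT2, 2 without KO2, 3 without WT1 and 5 or 6 in the other fits. Ctrc, chymotrypsin C, which controls trypsin activity, had 148, 131 and 139 CPM in KO, against 236, 257 and 225 CPM in WT (log2 difference -0.78, adjusted p = 0.00094). Syncollin (Sycn), a zymogen granule membrane protein, had 5236, 6048 and 6174 CPM in KO, against 9340, 9715 and 9335 CPM in WT (-0.70, adjusted p = 0.0073). Zg16, a granule lectin, averaged 6171 ± 197 CPM in KO and 10010 ± 226 CPM in WT (adjusted p = 0.0067), and the phospholipase gene Pla2g1b averaged 2052 ± 29.3 CPM in KO and 3388 ± 239 CPM in WT (adjusted p = 0.010). Ctrc was called without any 1 library, Sycn was lost without WT2, Zg16 without WT2 or KO2 and Pla2g1b without WT1 or KO2.

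The remaining called member, Cela3a, averaged 3.50 ± 1.20 CPM in KO and 8.89 ± 1.56 CPM in WT (log2 difference -1.35, adjusted p = 0.037, lost without WT1, WT2 or KO2), and its reads may be shared with its near copy Cela3b. The amylase and trypsinogen families hold near-identical copies too, and their members are uncertain for the same reason. The amylase gene Amy2a5 averaged 8.88 ± 1.96 CPM in KO and 10.6 ± 1.93 CPM in WT (adjusted p = 0.73). None of the 12 acinar transcription factors was called by edgeR (2 higher and 4 lower at an unadjusted p under 0.05, 1 and 1 by DESeq2, none by limma). Bhlha15, which sets up the secretory apparatus, had 63.0 to 65.2 CPM in KO and 55.2 to 88.0 CPM in WT. The enzyme list had a median of -0.046 at day 0 and -0.578 at day 4, when 16 members were called lower in KO.

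Duct and progenitor genes, which acinar cells switch on as they dedifferentiate, had 4 of 37 lower in KO, against 1.18% of all genes, and a median of -0.161. DESeq2 called 7 lower. The 4 were Sox9, a duct transcription factor (23.1 ± 1.35 CPM in KO and 33.7 ± 1.92 CPM in WT, adjusted p = 0.032), Tff2, a secreted trefoil peptide (1172 ± 60.7 CPM in KO and 1640 ± 13.95 CPM in WT, adjusted p = 0.041), the keratin Krt23 (adjusted p = 0.039) and the annexin Anxa1 (adjusted p = 0.035). Under library totals none was called lower, 1 member was higher and the median was 0.153. Each of the 4 calls was lost in at least 4 of the 6 fits with 1 library left out, and Tff2 in all 6 (adjusted p up to 0.17). Krt19, the keratin of duct cells, had 321 to 503 CPM in KO and 443 to 554 CPM in WT, and the groups overlapped. Under TMM scaling the summed level of 10 duct markers was 624 to 737 CPM in KO and 750 to 883 CPM in WT. The part of duct cells in these results was not tested.

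Cytosolic ribosomal protein genes and the factors that build ribosomes had medians of opposite sign under TMM scaling. Of 81 ribosomal protein genes, 16 fell, against 1.18% of all genes, 70 did not overlap with KO lower, against 9.85%, and the median was -0.299. The count of lower genes was 39 by DESeq2, 24 in a fit of the day 1 libraries alone and 5 or 4 by limma. Rpl41 had 356, 424 and 366 CPM in KO, against 574, 586 and 643 CPM in WT (log2 difference -0.65, adjusted p = 0.0060), and Rps19 had 130.2, 126 and 121 CPM in KO, against 171, 182 and 183 CPM in WT (-0.51, adjusted p = 0.0049). Both calls held without any 1 library, whereas Rps28 (-0.54) was lost without WT2 or KO2 and Rpl13 (-0.48) without WT2, WT3 or KO2. With 1 library left out it was 2 without WT2, 2 without KO2, 4 without WT3, 7 without WT1, 7 without KO3 and 11 without KO1. Their direction depended on the scaling, since under library totals 4 were higher, 1 was lower and the median was 0.018, and as a share of all counts these genes took 1.71% ± 0.0709 in KO and 1.72% ± 0.0907 in WT. Many have processed pseudogenes that can take their reads.

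Of 30 ribosome biogenesis genes, 28 had a positive difference, 13 did not overlap with KO higher (against 7.25% of all genes), and the median was 0.244. The 1 called member, against 0.273% of all genes that rose, was Utp20, a part of the small subunit processome. It had 39.7 ± 6.38 CPM in KO and 28.4 ± 2.61 CPM in WT (adjusted p = 0.030, lost without WT1, WT2, KO2 or KO3). DESeq2 called 7 higher, and under library totals 23 were higher, against 2347 of all 13203 genes. Mdn1, which was not in that list and encodes the AAA ATPase that releases assembly factors from the large subunit, rose as well, with 18.1, 24.3 and 25.1 CPM in KO, against 12.5, 12.4 and 12.6 CPM in WT (log2 difference 0.84, adjusted p = 0.00036). All 3 KO libraries were above the WT libraries, which hardly differed among themselves.

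Of the 7 genes encoded by mitochondrial DNA that were tested, 4 fell in KO, against 1.18% of all genes, with a median of -0.591. The count was 1 without robust estimation, 2 in a fit of the day 1 libraries alone and 6 with no filter. mt-Cytb, of complex III, had 779, 874 and 1067 CPM in KO, against 1446, 1499 and 1198 CPM in WT (log2 difference -0.61, adjusted p = 0.020). mt-Nd1 and mt-Nd2, of complex I, and mt-Co1, of complex IV, had adjusted p-values of 0.034, 0.040 and 0.042, and in mt-Nd2 and mt-Co1 the groups overlapped, WT3 being at the level of KO3. All 4 calls were lost without WT1, WT2, KO1 or KO2, and none was called under library totals, where the median was -0.278. These genes took 0.334% ± 0.0465 of counts in KO and 0.398% ± 0.0624 in WT. At day 0 all 7 were called lower in KO, and at day 4 mt-Cytb alone was.

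Of 33 genes of glycolysis and hypoxia, 30 had a negative difference and 2 fell, against 1.18% of all genes, with a median of -0.301. With no filter 6 were called lower, and by DESeq2 5. Ndrg1, a gene induced by low oxygen, had 454, 513 and 661 CPM in KO, against 808, 885 and 912 CPM in WT (log2 difference -0.68, adjusted p = 0.0011). Egln1, the oxygen sensor that marks HIF for degradation, had 48.7, 51.0 and 70.7 CPM in KO, against 77.8, 84.5 and 76.2 CPM in WT (-0.49, adjusted p = 0.037, called only without KO3 when 1 library was left out). In both genes KO3 was the KO library nearest to WT. Without KO3 the list had 8 members lower, without WT1 it had 3, and in the other 4 fits with 1 library left out it had 1. Under library totals 1 was lower and the median was 0.011.

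The calls among genes of cystine and glutathione metabolism depended on the scaling, as those of all genes did. Under library totals 5 of 32 genes of the glutathione cycle (median 0.364) and 9 of 30 genes of cysteine and methionine metabolism (median 0.272) were higher. Over all genes 2347 of 13203 were higher there, with a median of 0.317. Under TMM scaling edgeR called none of these 30, with 3 higher and 3 lower at an unadjusted p under 0.05, 1 higher by DESeq2 and none by limma. Slc3a2, the heavy chain that xCT pairs with at the membrane, had 318, 349.9 and 339 CPM in KO, against 350, 315 and 349 CPM in WT, and the ranges were nearly the same. Under TMM scaling 1 of the 32 genes of the glutathione cycle fell, against 1.18% of all genes, Ggt1, the ectoenzyme that breaks down extracellular glutathione (log2 difference -0.49, adjusted p = 0.040, lost in each fit with 1 library left out). Gclc and Gclm, the subunits of the enzyme that starts glutathione synthesis, differed by 0.37 and 0.29 (adjusted p = 0.34 and 0.26), with Gclm at 28.9 to 34.9 CPM in KO and 22.7 to 28.5 CPM in WT. Under library totals both were called higher (0.68 and 0.61, adjusted p = 0.0085 and 0.010). Gss, Gsr and Gpx4 differed by 0.13, 0.01 and -0.05 (adjusted p = 0.75, 0.98 and 0.92), and Nnt by -0.19 (0.60).

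Of 38 NRF2 targets, 1 rose (0.273% of all genes did) and 1 fell (1.18% did). Under library totals 17 were higher and none was lower, with a median of 0.383. Over all genes 2347 of 13203 were higher there, with a median of 0.317. Gsta3, a glutathione transferase, had 17.9, 24.9 and 25.6 CPM in KO, against 14.5, 11.7 and 14.9 CPM in WT (log2 difference 0.73, adjusted p = 0.015, lost without WT2 or KO2), and reads of its near copies may be counted with it. Osgin1 fell by 0.57 on the log2 scale (adjusted p = 0.040, lost in 5 of the 6 fits with 1 library left out, the exception being without WT3). Thioredoxin system genes had 2 of 23 lower, against 1.18% of all genes. They were Prdx4, the peroxiredoxin of the endoplasmic reticulum, and Msrb1, which repairs oxidized methionine. Prdx4 and Msrb1 fell by 0.57 and by 0.50 on the log2 scale (adjusted p = 0.0042 and 0.0082, both lost without WT2 or KO2). Under library totals 5 of that list were higher, against 2347 of all 13203 genes, and none was lower. Gstm5 fell by 0.72 on the log2 scale (adjusted p = 0.036, lost in 4 of the 6 fits).

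Of 51 genes tied to ferroptosis, lipid and iron handling, 1 rose (0.273% of all genes did) and 1 fell (1.18% did). Under library totals 13 were higher and none was lower, with a median of 0.303. Over all genes that scaling gave 2347 of 13203 higher and a median of 0.317. Trp53, encoding p53, had 31.1, 35.2 and 31.6 CPM in KO, against 25.8, 20.6 and 22.9 CPM in WT (log2 difference 0.50, adjusted p = 0.026, lost without WT2, WT3 or KO2). Scd1, which makes monounsaturated fatty acids, fell by 0.49 on the log2 scale (adjusted p = 0.045, lost in 5 of the 6 fits, the exception being without WT3) and was lower at day 0 and day 4 as well. Ptgs2, a marker used for ferroptosis, had 11.2, 9.89 and 1.93 CPM in KO, against 2.78, 8.89 and 8.17 CPM in WT, so that KO3 was the lowest library of all 6 (adjusted p = 0.91). Acsl4, Tfrc and Chac1 differed by -0.03, -0.06 and 0.23 (adjusted p = 0.96, 0.95 and 0.82).

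Of 38 genes of the ATF4 response to amino acid shortage, 1 was called, Slc7a3, a transporter of arginine and lysine, with 29.6, 28.4 and 31.9 CPM in KO, against 20.6, 19.2 and 21.4 CPM in WT (log2 difference 0.55, adjusted p = 0.015, lost without WT1 or WT2), against 0.273% of all genes that rose. Under library totals 25 were higher, with a median of 0.422, against 2347 of all 13203 genes and a median of 0.317. In a fit of the day 1 libraries alone 4 were higher and 1 lower. The same list had 14 members higher in KO at day 0 and 5 at day 4, with medians of 0.425 at day 0, 0.106 at day 1 and 0.068 at day 4. Among 20 aminoacyl-tRNA synthetases, whose median was 0.180, edgeR called none, with 9 higher at an unadjusted p under 0.05, 2 higher by DESeq2 and 4 higher by limma on FPKM, and under library totals 15 were higher. The stress-induced Sesn2, an inhibitor of mTORC1 signalling, was higher in KO at day 0 (log2 difference 1.40, adjusted p = 1.7e-07) and differed by 0.06 at day 1, a change of -1.34 (adjusted p = 6.7e-05).

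**Figure D4:**
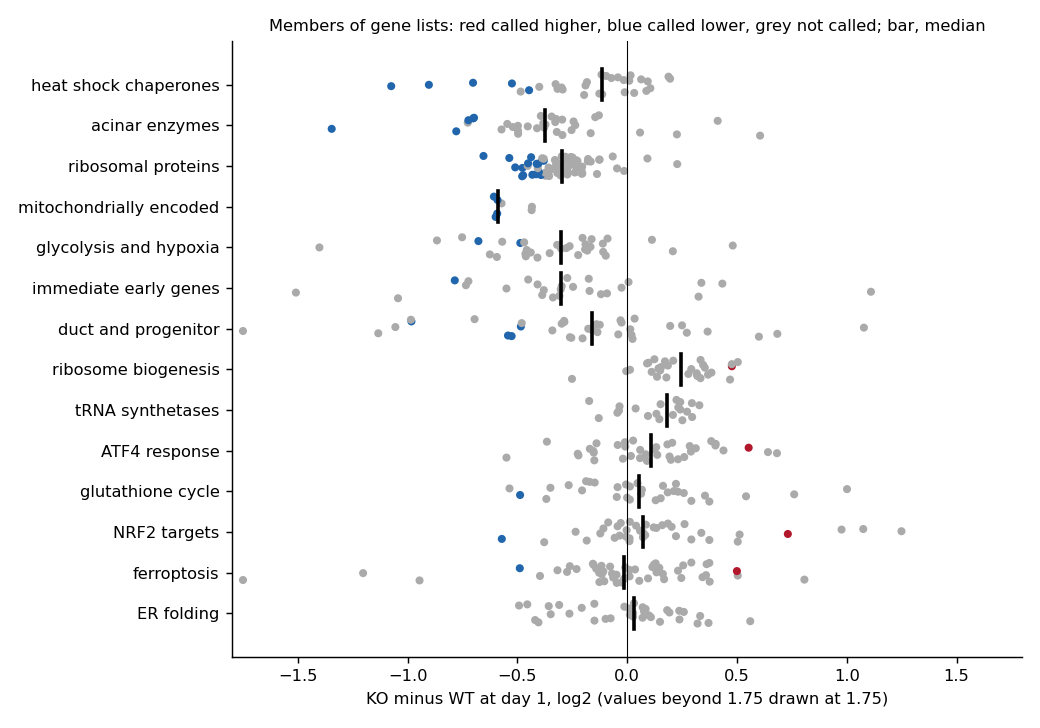
Log2 difference, KO minus WT at day 1 (horizontal axis), of every tested member of 14 gene lists, with called members in red (higher in KO) or blue (lower in KO), others in grey and the median of the list as a black bar. Blue points are most numerous among ribosomal proteins (16 of 81, the longest of these lists) and make up 4 of 7 among mitochondrially encoded genes, and the bars lie furthest left for mitochondrially encoded genes (-0.591) and furthest right for ribosome biogenesis (0.244).

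Of 19 genes of serine and one-carbon metabolism, 2 fell, against 1.18% of all genes. Under library totals 7 were higher and 1 was lower, against 2347 and 51 of all 13203 genes. Sardh, the mitochondrial enzyme that turns sarcosine into glycine, had 41.1, 35.9 and 41.9 CPM in KO, against 63.3, 62.1 and 56.1 CPM in WT (log2 difference -0.61, adjusted p = 0.0011), and was called without any 1 library. Aldh1l1, a folate enzyme, fell by 0.50 on the log2 scale (adjusted p = 0.019, lost without WT1, WT2, KO1 or KO2). Ggh, a lysosomal hydrolase of folate polyglutamates, fell by 0.67 on the log2 scale (112 ± 9.97 CPM in KO and 179 ± 24.2 CPM in WT, adjusted p = 0.00081). The zinc transporters Slc30a2 and Slc39a5 were 2 of 12 zinc and metallothionein genes that fell, against 1.18% of all genes (-0.71 and -0.46, adjusted p = 0.040 and 0.018), Slc30a2 being called only without WT3 and Slc39a5 only without WT3 or KO1. Under library totals 1 member of that list was higher and none was lower, and in a fit of the day 1 libraries alone 4 were lower. Ocln, of tight junctions, fell by 0.43 on the log2 scale (adjusted p = 0.0046, lost without KO2). It was the 1 called member of 33 epithelial junction genes, against 1.18% of all genes that fell, and the median of that list was -0.044. Under library totals Ocln was not called (-0.11, adjusted p = 0.44).

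Several genes outside these lists were among the 15 lowest called genes, once those averaging under 5 CPM or with overlapping groups were set aside. Adh1, an alcohol and retinol dehydrogenase, had 3.07, 2.86 and 2.40 CPM in KO, against 6.21, 10.96 and 7.62 CPM in WT (log2 difference -1.56, adjusted p = 0.00010). Nr1d1, the circadian repressor REV-ERBα, had 49.4, 35.5 and 29.5 CPM in KO, against 76.0, 101 and 82.5 CPM in WT (-1.18, adjusted p = 0.00081). Sema7a, a membrane-anchored semaphorin, had 89.2, 69.5 and 75.2 CPM in KO, against 129, 146 and 161 CPM in WT (-0.89, adjusted p = 9.2e-07). No KO library reached a WT library in these 3 genes.

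Camk2b, a calcium/calmodulin kinase, fell by 0.95 on the log2 scale (adjusted p = 2.3e-05), and Smim24, a small membrane protein, fell by 1.47 (adjusted p = 0.0033). Hamp2 fell by 1.04 (adjusted p = 0.00022), and its near copy Hamp may share its reads. These calls, and those of Adh1, Nr1d1 and Sema7a, held without any 1 library and under library totals. Gm24270, annotated as a miRNA inside Peak1, fell by 0.86 on the log2 scale, and its reads cannot be told apart from those of Peak1, which itself differed by -0.01. The selenoprotein gene Selm (-0.90), 1190002N15Rik (-0.91) and 4930539E08Rik (-1.09) completed this ranking of 15 genes with Slc7a11, Hsph1, Dnajb1, Cela3a and Anxa1. The ranking set aside called genes that averaged under 5 CPM or whose groups overlapped. Cdhr2 (-1.8) and Myh11 (-4.2) were called lower but are not in it. Selm and 1190002N15Rik were lost without WT2 or KO2, and 4930539E08Rik without WT1, WT2, KO1 or KO3.

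Col4a1 and Serpinh1 were among the 15 highest called genes, once those averaging under 5 CPM or with overlapping groups were set aside. The difference of Serpinh1 was below the median of all 36 higher genes, 0.82. Col4a1, a chain of basement membrane collagen, had 53.4, 52.3 and 29.2 CPM in KO, against 18.3, 21.9 and 18.9 CPM in WT (log2 difference 1.20, adjusted p = 0.036), and Serpinh1, the chaperone of collagens, had 83.4, 76.1 and 56.6 CPM in KO, against 34.3, 43.9 and 48.1 CPM in WT (0.78, adjusted p = 0.041). KO1 was highest and KO3 lowest of the KO libraries in both. Col4a1 was called only without KO3, and Serpinh1 only without WT3 or KO3. Postn, a secreted matrix protein near Slc7a11, rose as well, as did Serpinf1, Olfml3 and Ccl11, which were named after their values were seen. The log2 difference was 2.61 for Postn, 2.94 for Serpinf1, 2.83 for Olfml3 and 1.69 for Ccl11 (adjusted p = 0.042, 0.018, 0.036 and 0.045). Despite these differences they are not among the 15 highest, since each averaged under 5 CPM or had overlapping groups. Tfpi2, a protease inhibitor, had 7.28, 3.41 and 2.63 CPM in KO, against 0.463, 1.66 and 0.743 CPM in WT (adjusted p = 0.0085, lost without WT1, WT3 or KO1). Postn, Serpinf1, Olfml3 and Ccl11 were each lost without KO1, without WT1 and without WT2.

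Of 10 markers of fibroblasts and stellate cells, edgeR called none at day 1, with 3 higher at an unadjusted p under 0.05, 2 higher by DESeq2 and none by limma. Their summed level was 50.8, 18 and 12.8 CPM in KO1, KO2 and KO3, against 10.4, 13.4 and 9.19 CPM in WT, so that KO1 stood apart and KO3 was below WT2. The 10 markers had a median log2 difference of 1.4 with 9 positive values, and none of them was at 0 in all 6 libraries. Their part in the differences of Col4a1, Serpinh1, Postn, Serpinf1, Olfml3 and Ccl11 was not tested. At day 4, 9 of these markers were called lower in KO, with a median of -1.93. Col4a1 averaged 13.6 ± 2.3 CPM in KO and 40.3 ± 8.8 CPM in WT, a change of -2.76 from day 1 (adjusted p = 0.00070). Vim, an intermediate filament of mesenchymal and dedifferentiating cells, changed by -4.14 (adjusted p = 0.0017), from a difference of 1.08 at day 1 that did not pass the test (adjusted p = 0.31).

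Other genes that rose were the phosphate transporter Slc20a2 (0.60), the cytokine signal inhibitor Socs2 (0.60), the AP-1 repressor Jdp2 (0.88), Trim35 (0.53), BC017643 (0.84), 3110082I17Rik (0.92) and the protocadherin Pcdhgc3 (0.92), whose exons overlap those of a gene cluster. BC017643 was called without any 1 library, though it overlaps Hexdc. Each of the others was lost without WT1. Slc20a2, 3110082I17Rik and Pcdhgc3 were lost also without WT2 or KO2, Socs2 without WT2, WT3 or KO1, Jdp2 without WT2, WT3 or KO2, and Trim35 without WT3, KO2 or KO3. Of the 50 tested genes that lie within 10 Mb of Slc7a11 on chromosome 3, 2 rose, Tm4sf4 (0.54, adjusted p = 0.047) and Postn (2.61, adjusted p = 0.042), against 0.273% of all genes, and the median of these 50 was 0.006. Under library totals 12 of the 50 were higher, against 2347 of all 13203 genes. Tm4sf4, a tetraspanin-like membrane protein, was called only without KO1.

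Of the other cell types, B cell, T cell and neutrophil markers were at or near 0. Their summed levels were at most 0.401, 0.477 and 0.273 CPM in KO libraries and 1.11, 0.517 and 0.103 CPM in WT libraries. Islet markers summed to 139 to 365 CPM in KO and 190 to 628 CPM in WT, endothelial markers to 19.3 to 34 CPM in KO and 18.5 to 23.1 CPM in WT, and macrophage markers to 51.3 to 72.2 CPM in KO and 63.2 to 69.6 CPM in WT, all overlapping. Ptprc, a surface phosphatase of leukocytes, had at most 0.186 CPM in any library. Of 8 smooth muscle markers 6 were tested, and Myh11 was called lower from 1 count in KO and 16 in WT (ratio 0.0458, 95% counting interval 0.00109 to 0.295), a call lost in each fit with 1 library left out. The 10 acinar markers were by far the most abundant, as the label of the cells says, and summed to 383000 to 430000 CPM in KO and 519000 to 544000 CPM in WT. The size of this gap depends on the TMM scaling, whose factors were 0.888 to 0.968 in KO and 0.739 to 0.762 in WT. As a share of all counts, the longer list of acinar enzymes took 65.2% in KO and 68.4% in WT.

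For the 12 lists with no called member, 344 genes in all were tested, with 27 higher and 24 lower at an unadjusted p under 0.05, 6 and 6 called by DESeq2, and 6 called by limma on FPKM, all higher. They covered tRNA synthetases, cysteine and methionine metabolism, acinar transcription factors, Reg lectins, folding in the endoplasmic reticulum, the interferon response, inflammatory mediators, apoptosis, sterol synthesis, focal adhesion, proliferation and autophagy. Reg3a, a lectin induced in pancreatitis, had 235 to 294 CPM in KO and 208 to 304 CPM in WT. Mecom, F3, Mapk11 and Plk3 differed by 0.25, -0.12, 0.12 and -0.46 (adjusted p = 0.70, 0.89, 0.96 and 0.38).

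Few of the day 1 differences were called at the other days. At day 0, 155 genes (1.17%) were called, 85 higher (0.644%) and 70 lower (0.53%), and at day 4, 1350 genes (10.2%), 506 higher (3.83%) and 844 lower (6.39%). The KO to WT difference changed for 13 genes (0.0985%) between day 0 and day 1, 11 of them downward (0.0833%) and 2 upward (0.0151%), and for 343 (2.6%) between day 1 and day 4, 221 downward (1.67%) and 122 upward (0.924%). Of the 36 higher genes, 5 (13.9%, and 5.88% of the 85 called higher at day 0) were also called higher at day 0 and 3 (8.33%, and 0.593% of 506) at day 4, where 9 were called lower. Of the 156 lower genes, 16 (10.3%, and 22.9% of 70) were also called lower at day 0 and 33 (21.2%, and 3.91% of 844) at day 4. Of the same 156, 2 were called higher at day 0 and 4 at day 4. The sign at day 0 was that of day 1 for 28 of the 36 higher and 117 of the 156 lower genes. At day 4 this held for 18 and 125 of them. In all, 10 genes were called with the same direction at the 3 days. Moxd1 and Hist1h2al were higher in KO, and the other 8 were lower, Slc7a11, Adh1, Smim24, Camk2b, Selm, Scd1, mt-Cytb and Cdhr2, a cadherin of the brush border. The day 1 call of Moxd1 was lost without WT2, WT3 or KO1, and that of Cdhr2 without WT2 or KO2. Hist1h2al, a histone H2A gene with near-identical copies, had 174 counts over the 3 KO libraries and 1 over the 3 WT libraries at day 1 (ratio 128, 95% counting interval 22.6 to 5070), and Moxd1, a copper monooxygenase, had 32 and 1 (ratio 23.5, interval 3.92 to 956). Gm7327, also called lower, had 0 counts in KO and 49 in WT at day 1, at least 22.3-fold lower in KO with the floor of 3 counts over the group. Its call was not followed in the fits with 1 library left out. These intervals cover counting error only.

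The differences depended on gene length to a small degree. Spearman's rho between length and log2 difference was 0.113 over 13203 genes, which are not independent replicates, and 0.088 at day 0 and 0.165 at day 4. The shortest genes (2644 of up to 2098 bases) had a median of -0.064 and held 60 of the 156 lower genes, and the longest genes (2640 of at least 6800 bases) had a median of 0.039 with 13 higher and 16 lower. The ribosomal protein and mitochondrially encoded genes are short, and the part of length in their difference was not tested.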

How the data were processed

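Total RNA from 18 cultures (KO and WT at day 0, day 1 and day 4, 3 libraries each, named as biological replicates by the series) was sequenced as single-end reads from TruSeq libraries. The authors trimmed bases under a quality of 20, dropped reads under 35 bases, mapped to GRCm38 with Ensembl release 82, and deposited raw counts per gene from featureCounts 1.5.3, together with FPKM values that the authors had quantile normalised within and between libraries. Neither the aligner nor whether counting used strand is given in the sources used here, so antisense and overlapping genes cannot be told apart. Because of that normalisation all 18 libraries share the same highest FPKM, so the most abundant genes tie there.

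Counts were tested with edgeR 4.0.16 in R 4.3.3 (TMM scaling, filterByExpr, robust quasi-likelihood fit of all 18 libraries in 6 groups, Benjamini-Hochberg over 13203 genes, threshold 0.05). CPM are counts scaled by the TMM-normalised library size. A change of the difference between days was tested as an interaction contrast. The members and lists were chosen with earlier results of these data known. Named genes were a set of genes of system xc-, glutathione, ferroptosis and the culture model, the 15 highest and 15 lowest called genes with at least 5 CPM and no overlap, up to 4 called members per list and direction, up to 6 near Slc7a11, and up to 6 per direction for each change between days. Hsp90aa1, Hspa8, Hspb1, Hspa1a, Cdhr2, Moxd1, Hist1h2al, Myh11, Gm7327, Serpinf1, Olfml3 and Ccl11 were named after their values were seen. The call rule, filter, scaling, samples in the fit and test were varied, with DESeq2 1.42.0 on counts and limma 3.58.1 on log2(FPKM + 1) and log2(FPKM + 0.1) as alternatives. The test of KO against WT at day 1 was also run on simulated counts with known differences, and no result given here rests on that run. Gene IDs were found in GENCODE vM21 for 98.9% of the table. Replicates of a group differed by more than counting noise (chi-square per degree of freedom 5.86 to 14.3). With 3 against 3, an exact permutation test cannot go below 0.1, so none was used.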

Additional observations from a re-analysis of the deposited data

Results flagged for a closer look

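A test of the change of the KO to WT difference between days picked out the results below, all of which share the day 1 libraries. From day 0 to day 1, 13 of 13203 genes (0.0985%) passed by edgeR's quasi-likelihood test with Benjamini-Hochberg adjustment, 2 upward and 11 downward, and under library totals 10 passed, 7 upward and 3 downward. Hsph1 changed by -1.79. The stress genes Sesn2 and Ddit4, both inhibitors of mTORC1 signalling, changed by -1.34 (adjusted p = 6.7e-05) and -1.56 (adjusted p = 0.00086), with Ddit4 at a difference of 1.33 at day 0 and -0.23 at day 1. Ncoa4, the receptor that takes ferritin to lysosomes, changed by -1.27 (adjusted p = 0.0060), the folate hydrolase gene Ggh by -0.88 (adjusted p = 0.0075) and Arid5a, an RNA-binding protein, by -2.08 (adjusted p = 0.0075). Tm4sf4 and Ccdc9 changed upward, by 1.24 and 1.26 (adjusted p = 0.031 for each). The count was 5 without WT2, 6 without WT1, 6 without KO2, 21 without WT3 and 29 without KO1. Upward changes alone numbered 0 without WT1, WT2 or KO2, 1 without KO3, 3 without WT3 and 4 without KO1. Without robust estimation they numbered 0 as well.

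From day 1 to day 4, 343 genes (2.6%) passed, 122 upward and 221 downward, and under library totals 286 passed, 23 upward and 263 downward. Among the upward changes were those of Hsph1 (1.27), Dnajb1 (0.93), Dusp1 (1.40), Gadd45b (1.27, adjusted p = 6.9e-05) and Rcan1 (1.05). Atg9b, an autophagy membrane protein, changed by 2.29 (adjusted p = 7.7e-06), with 7.55 ± 0.182 CPM in KO and 1.56 ± 0.195 CPM in WT at day 4 and a difference of -0.02 at day 1. Among the downward changes were those of Col4a1 (-2.76), Hspg2 (-1.31, adjusted p = 0.00042), Itga5 (-1.70, adjusted p = 0.00086), Gpc1 (-0.81, adjusted p = 0.0017) and Vim (-4.14), and of Gsto1, a glutathione transferase (-0.75, adjusted p = 0.0014). The count was 180 without WT1 and 207 without KO2. Of 10 markers of fibroblasts and stellate cells, 9 had a positive difference at day 1 and 9 were called lower in KO at day 4, and the part of these cells was not tested.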

How the results depend on the processing

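The 192 genes called at day 1 became 2398 under library totals, 384 with no filter on low counts, 560 by DESeq2, 117 by limma on log2(FPKM + 1), 81 by limma on log2(FPKM + 0.1), 55 at an adjusted p under 0.01 and 328 at an unadjusted p under 0.05 with a log2 difference over 1. The 13 genes of the change from day 0 to day 1 became 84 with no filter, 7 without robust estimation, 136 by DESeq2, 57 by limma on log2(FPKM + 0.1), 6 at 0.01 and 445 at the unadjusted threshold. The 343 genes of the change from day 1 to day 4 became 515 with no filter, 682 by DESeq2, 96 and 174 by limma with pseudocounts of 1 and 0.1, 112 at 0.01 and 632 at the unadjusted threshold. Leaving out 1 library gave 45 to 214 genes at day 1, 5 to 29 for the first change and 180 to 421 for the change from day 1 to day 4. The cause was not tested.

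Replicate numbers did not pair KO with WT libraries at day 1, where same-numbered libraries deviated with correlations of -0.083, 0.028 and -0.035, and the replicate block gave 190 genes. Across days, the Y-linked Ddx3y was counted in WT1 at all 3 days and in no other library, though the labels do not say that a number marks 1 mouse. For the changes between days, the replicate block gave 11 and 310 genes, and a replicate block nested in genotype 15 and 322.

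Of the genes named, 19 changed sign under some alternative, none of them called in the main edgeR fit under TMM scaling. With its sign changed, Slc3a2 was called higher under library totals (adjusted p = 0.028). Under library totals the log2 difference was 0.29 for Acsl4, 0.076 for Amy2a5, 0.30 for Atg9b, 0.16 for Bhlha15, 0.095 for Ddit4, 0.20 for F3, 0.20 for Gpc1, 0.27 for Gpx4, 0.046 for Krt19, 0.13 for Nnt, 0.31 for Slc3a2, 0.26 for Tfrc and 0.13 for Hspa1a. With no filter it was 0.0059 for Atg9b and 0.016 for Slc3a2. By limma with pseudocounts of 1 and 0.1 it was 0.022 and 0.025 for Acsl4, 0.0077 and 0.013 for Atg9b, 0.061 and 0.063 for Gpx4, -0.0043 and -0.0058 for Gsr, and 0.038 and 0.039 for Slc3a2. With 1 library left out it ranged from -0.17 to 0.11 for Acsl4, -0.18 to 0.11 for Atg9b, -0.31 to 0.020 for Bhlha15, -0.41 to 0.13 for F3, -0.12 to 0.058 for Gpx4, -0.099 to 0.085 for Gsr, -0.34 to 0.018 for Hspa1a, -0.30 to 0.68 for Mapk11, -0.034 to 0.56 for Mecom, -0.13 to 0.68 for Ptgs2, -0.024 to 0.25 for Reg3a, -0.037 to 0.19 for Sesn2, -0.057 to 0.029 for Slc3a2 and -0.24 to 0.17 for Tfrc. Pla2g1b, Sycn, mt-Co1 and mt-Cytb, which are among the most abundant genes, could not be compared by FPKM where they tied. Genes under about 1 CPM rest on few counts, and small differences there were not detectable at this depth.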
